A study of Macaca radiata with 6 samples.

Results

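The genes described here encode 7 enzymes of cholesterol synthesis, from farnesyl diphosphate synthase to the last reductase of the sterol pathway, in the corpus luteum (CL) of bonnet monkeys. They are FDPS, FDFT1, SQLE, CYP51A1, HSD17B7, EBP and DHCR7, and they were read by 13 of the 52865 probe sets on the array. The genes were selected on their difference between treated and control CL in these same arrays and on their place in the pathway, so that difference is described below without a test. Each of them counts among the 14132 genes named by at least 1 probe set that carries only that symbol.

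The CET group was 3 CL samples taken 24 h after adult female monkeys received a single subcutaneous dose of Cetrorelix, at 150 μg/kg BW, on day 7 of the luteal phase. Cetrorelix blocks the GnRH receptor in the pituitary and so withdraws LH, the hormone on which the primate CL depends. The VEH group was 3 CL samples from monkeys injected with 5.25% glucose on the same day and sampled after the same interval. The series describes the same monkeys as donors of both groups, without saying which samples share an animal. Each sample was hybridised to 1 Affymetrix rhesus macaque array, which carries probes for a related macaque and not for the bonnet monkey.

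Cholesterol is built from isoprene units that are joined into farnesyl diphosphate. This intermediate is a branch point: it leads to squalene and the sterols, and also to dolichol, the side chain of ubiquinone and the lipid anchors of proteins. Luteal cells convert cholesterol into progesterone (P4), and take it from lipoproteins, from stored esters and from their own synthesis. In mammals most genes of the pathway are switched on by SREBP2, a transcription factor that is released when membrane cholesterol is low and is retained by INSIG proteins when it is high.

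The deposited values are MAS5 signals on a linear scale. For comparison between arrays they were converted to log2 and quantile-normalized, and a difference is the mean log2 signal of CET minus that of VEH, with its standard error (SE) from limma. Where a gene had several probe sets it was read at the brightest, the one with the highest mean over all 6 arrays. All 7 genes lay above the limit set for dim probe sets, a mean log2 signal of 7.43, at that probe set.

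All arrays had been scaled alike, to a trimmed mean signal of 500 (2% left out at each end), but CET replicate 2 stood apart in the control probe sets that compare the 3' and 5' ends of a transcript. Its 3' to 5' signal ratio for GAPDH was 142.9, against 5.88 and 3.03 on CET replicates 1 and 3 and 1.79 to 7.31 on the VEH arrays. Values without this array are given below, and the part of RNA quality in the results was not tested. Of the 9 listed markers of luteal steroidogenic cells 7 had a probe set, and all 7 lay above the dim limit. STAR and HSD3B2, which mark these cells, had mean log2 signals of 13.76 and 14.19 in CET and of 15.20 and 14.69 in VEH.

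The 6 chosen genes after FDPS had a lower mean signal in CL after CET, and FDPS, which makes farnesyl diphosphate, had a higher mean with overlapping groups. The contrast between FDPS and the others was not tested. Of the 7 genes, 6 had a lower mean after CET, against 54.6% of all genes, and the same 6 were lower by at least 1.5-fold, against 23.9% of all genes. In these 6 genes the CET and VEH arrays did not overlap, with all CET values lower, which was so for 6.45% of all genes. The median log2 difference was -1.46 over the 7 genes and -1.53 over the 6 without FDPS, and -0.08 over all genes. These counts follow from how the genes were chosen and nothing is read from them. Over the whole array 0 of 52707 probe sets, or 0%, passed limma at an adjusted p of 0.05, so that none of the 13 probe sets of these genes did. On simulated arrays with the same spread, changes were put into a small share of the probe sets. This fit called few or none of them, also of the largest size tried, so a count of 0 says little about which genes changed. A larger share of changed probe sets was not tried. Before adjustment 2834 of the 52707 probe sets had p under 0.05 by limma and 2733 by the methods' t-test, which also left 0 after adjustment. Both counts are close to what a limit of 0.05 passes when no gene changes.

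**Figure D1:**
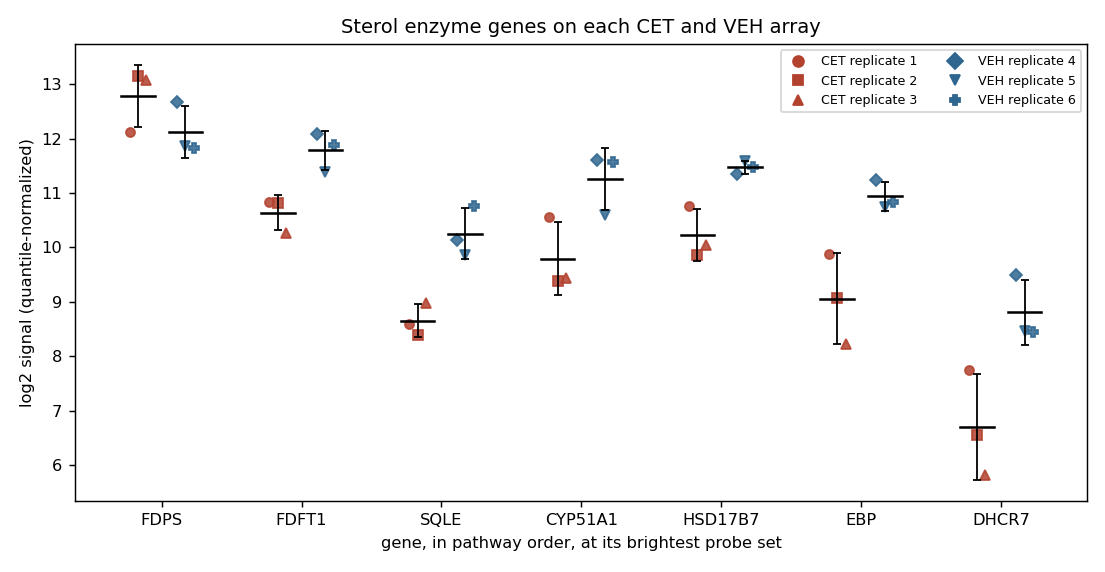
Log2 signal (vertical axis, quantile-normalized) of the 7 genes on each array, with the genes along the horizontal axis in pathway order. Each point is 1 array, CET left of VEH, each horizontal mark is the mean of a group, and error bars show 1 SD (n = 3). From FDFT1 to DHCR7 all CET points lie below all VEH points, narrowly so for CYP51A1, while those of FDPS overlap.

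FDPS condenses isoprene units into farnesyl diphosphate and stands at the head of the series. Its MAS5 signals were 4826, 6961 and 6019 in CET replicates 1, 2 and 3, and 7654, 4423 and 3862 in VEH replicates 4, 5 and 6. The groups overlapped, since VEH replicate 4 had the highest of these signals and VEH replicate 6 the lowest. After normalization CET replicate 2 was the highest, at a log2 signal of 13.15, and the groups still overlapped. On the log2 scale the mean was 12.78 ± 0.57 in CET and 12.12 ± 0.49 in VEH (SD, n = 3 each), a difference of 0.66 (SE 0.44). FDPS was read by a single probe set, and the size of its difference depended on the scaling: without normalization between arrays it was 0.21, and with array medians subtracted it was 0.0086.

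FDFT1, squalene synthase, joins farnesyl diphosphate into squalene and commits it to sterols. Its MAS5 signals were 1725, 1815 and 1219 in CET replicates 1, 2 and 3, and 4790, 3128 and 4000.5 in VEH replicates 4, 5 and 6. The highest CET array lay 0.56 below the lowest VEH array on the log2 scale. The mean log2 signal was 10.64 ± 0.32 in CET and 11.79 ± 0.36 in VEH (SD, n = 3 each), a difference of -1.14 (SE 0.41), or 2.21-fold lower. Its second probe set gave nearly the same difference, -1.16 (SE 0.45), also without overlap. With array medians subtracted the difference at the brightest probe set was -1.53, while the median over all genes then was -0.20.

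SQLE, squalene epoxidase, adds the oxygen that lets squalene close into the sterol rings, and is a control point of the pathway. Its MAS5 signals were 404, 340.4 and 557 in CET replicates 1, 2 and 3, and 1084, 951 and 1771 in VEH replicates 4, 5 and 6. This was the widest gap of the 7 genes between the groups, 0.88 on the log2 scale, and SQLE was the only one of the 6 lower genes with CET replicate 3 as its highest CET array. The mean log2 signal was 8.65 ± 0.30 in CET and 10.26 ± 0.46 in VEH (SD, n = 3 each), a difference of -1.60 (SE 0.48), or 3.03-fold lower. The second probe set of SQLE was below the dim limit and its groups overlapped, with a difference of -2.01 (SE 0.93).

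CYP51A1 encodes the cytochrome that removes a methyl group from lanosterol. Its MAS5 signals were 1421, 709 and 741 in CET replicates 1, 2 and 3, and 3297, 1700.1 and 3153 in VEH replicates 4, 5 and 6. The groups were kept apart by only 0.029 on the log2 scale, with a log2 signal of 10.56 for CET replicate 1 and 10.59 for VEH replicate 5. The mean log2 signal was 9.80 ± 0.67 in CET and 11.26 ± 0.57 in VEH (SD, n = 3 each), a difference of -1.46 (SE 0.49), or 2.75-fold lower. At the second probe set the difference was -1.05 (SE 0.44) and the gap wider, 0.34. VEH replicate 5 was the lowest VEH array at the first of these probe sets and the highest at the second.

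HSD17B7 encodes a reductase of the demethylation steps that follow, and the enzyme can also reduce estrone to estradiol. It was first described in the rodent CL. At its brightest probe set the MAS5 signals were 1650.4, 986 and 1065 in CET replicates 1, 2 and 3, and 2729, 3614 and 2937 in VEH replicates 4, 5 and 6. The mean log2 signal was 10.22 ± 0.48 in CET and 11.48 ± 0.12 in VEH (SD, n = 3 each), so that the VEH arrays lay close together. The difference was -1.25 (SE 0.42), or 2.38-fold lower. Among the 7 sterol enzyme genes, the 3 probe sets of HSD17B7 differed most. One gave -2.17 (SE 0.79) with no overlap, and its signals were 334, 37.1 and 209.7 in CET and 488, 562 and 618 in VEH. The size leaned on CET replicate 2, the array with the high 3' to 5' ratio. Its log2 signal there was 5.21, against 8.26 and 7.53 on CET replicates 1 and 3. The remaining one gave -0.57 (SE 0.62) and its groups overlapped: CET replicate 1 had a signal of 247, but CET replicates 2 and 3 had 1186 and 885, within or above the VEH signals of 780.2, 1141 and 759.

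EBP, the sterol isomerase, moves a double bond within the ring system. Its MAS5 signals were 894, 569 and 333 in CET replicates 1, 2 and 3, and 2498, 1908 and 1865 in VEH replicates 4, 5 and 6. Even the highest CET array lay 0.85 below the lowest VEH array on the log2 scale. The mean log2 signal was 9.06 ± 0.84 in CET and 10.94 ± 0.26 in VEH (SD, n = 3 each), a difference of -1.88 (SE 0.51), or 3.69-fold lower. The second probe set had a similar difference, -1.74 (SE 0.82), but CET replicate 1, at 1041, was above VEH replicate 6, at 1006. Both EBP probe sets, and the HSD17B7 probe set with the difference of -2.17, carry the suffix that Affymetrix gives to probe sets shared by several transcripts, and signal from related sequences could not be separated.

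DHCR7 encodes the reductase that forms cholesterol from its last precursor on one route of the pathway. Its single probe set had MAS5 signals of 245, 92.1 and 71.5 in CET replicates 1, 2 and 3, and 699, 300 and 339 in VEH replicates 4, 5 and 6. The groups did not overlap, but CET replicates 2 and 3 lay below the dim limit at log2 signals of 6.54 and 5.81, where the order of signals is less certain. The mean log2 signal was 6.70 ± 0.98 in CET and 8.80 ± 0.60 in VEH (SD, n = 3 each), a difference of -2.10 (SE 0.72), or 4.30-fold lower. It was -1.98 with signals raised to a floor at the 20th percentile of each array.

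**Figure D2:**
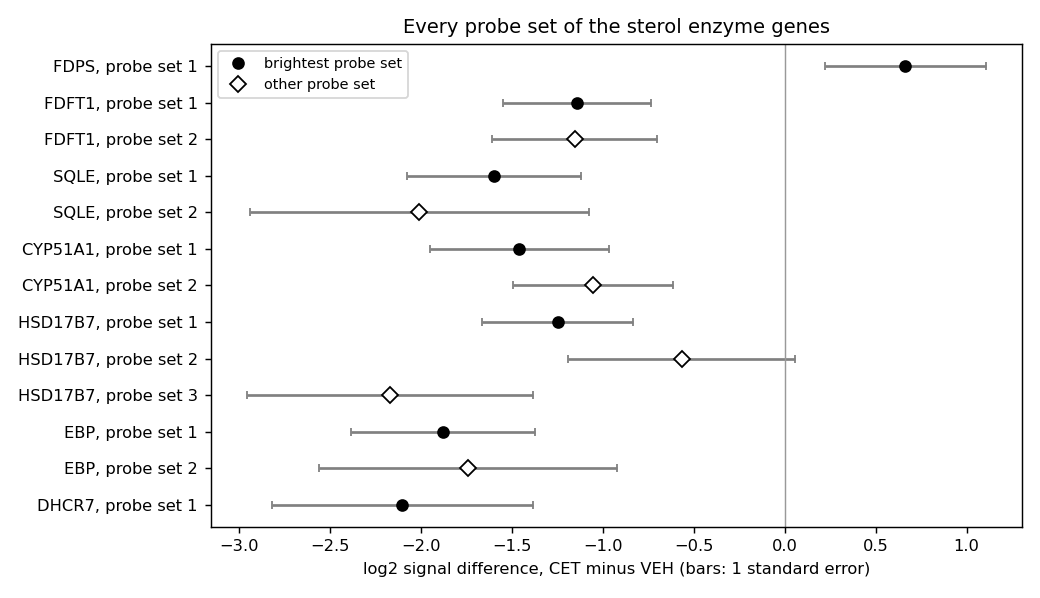
Log2 signal difference, CET minus VEH (horizontal axis), for each of the 13 probe sets, with genes in pathway order down the page. Filled points are the brightest probe set of a gene, open points the others, and bars are 1 SE. The 12 probe sets of the 6 later enzymes lie below 0, between -0.57 and -2.17, and the 1 probe set of FDPS lies above it.

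Over all probe sets of these genes, 12 of 13 had a lower mean after CET, and 9 of 13 were lower without overlap between CET and VEH, against 5.25% of all probe sets. All 3 probe sets that were lower but overlapped had a sister probe set of the same gene without overlap. No gene had probe sets of opposite sign.

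The 3 CET arrays differed in how far they lay below the VEH arrays. Averaged over the 6 genes after FDPS, the log2 signal relative to the VEH mean was -1.02 on CET replicate 1, -1.74 on CET replicate 2 and -1.96 on CET replicate 3, and 0.24, -0.31 and 0.08 on VEH replicates 4, 5 and 6. CET replicate 1 was thus closest to the VEH arrays but still below them in each of the 6 genes. It was the highest CET array for CYP51A1, HSD17B7, EBP and DHCR7, close to CET replicate 2 for FDFT1 (10.83 and 10.82), and between the others for SQLE. The median SD between replicates was 0.57 in CET and 0.46 in VEH over the 7 genes, against 0.74 in CET and 0.48 in VEH over all genes. The SD was higher in CET than in VEH for 5 of the 7 genes, and for 66.7% of all genes.

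Because a scaling of an array moves all its genes alike, each enzyme was also set against FDPS within the same array. Relative to the VEH mean, the log2 ratio of FDFT1 to FDPS was -1.11, -1.56 and -1.93 in CET replicates 1, 2 and 3, and -0.30, -0.12 and 0.43 in VEH replicates 4, 5 and 6. For EBP it was -1.14, -2.32 and -2.88 in CET, and -0.32, 0.08 and 0.24 in VEH. For all 6 enzymes the ratio was lower on every CET array than on every VEH array, with means from -1.53 for FDFT1 to -2.11 for EBP. The gap was smallest for HSD17B7, where CET replicate 1 had -0.82 and VEH replicate 4 had -0.76. The ratio restates the differences by which the genes were chosen, so it is given as a description and nothing is read from it.

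**Figure D3:**
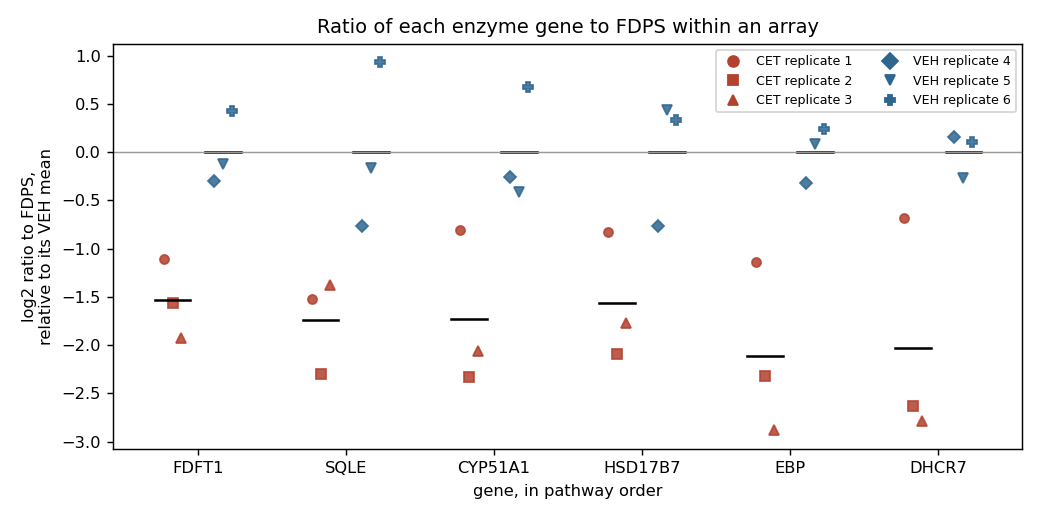
Log2 ratio of each enzyme gene to FDPS on the same array, from the deposited signals and relative to the VEH mean (vertical axis), for the 6 genes after FDPS in pathway order (horizontal axis). Points are single arrays, CET left of VEH, and each horizontal mark is the mean of a group. All CET points lie below all VEH points of the same gene, from -0.68 for DHCR7 on CET replicate 1 down to -2.88 for EBP on CET replicate 3.

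The rest of the pathway was followed in 38 further genes, of which 26 had a probe set. By limma, 0 of the 26 had an adjusted p under 0.05. The mean after CET was lower in 20 and higher in 6, while 54.6% of all genes had a lower mean at the brightest probe set. The counts of lower means in the lists below stand beside this same share. At an unadjusted p under 0.05 from limma there were 3 lower genes, INSIG2, STARD4 and FASN, and 0 higher. Of all probe sets 2.74% were lower at that limit, which is a share of probe sets and not of genes. In 7 of the 26 all CET arrays were below the VEH arrays, against 6.45% of all genes at the brightest probe set, and in 0 were they all above. The other 12 genes were not analysed here.

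Of the enzymes before farnesyl diphosphate, MVK, PMVK, MVD and IDI1 were measured, and 4 of 4 had a lower mean after CET, with a median log2 difference of -0.56. IDI1, which interconverts the isoprene units that FDPS joins, had the smallest p of them, with a difference of -1.40 (SE 0.78, adjusted p = 0.83 from limma). Its value rested on single arrays: the log2 signals were 9.17, 5.94 and 7.36 in CET replicates 1, 2 and 3 and 8.95, 8.89 and 8.85 in VEH replicates 4, 5 and 6, and leaving out CET replicate 2 gave a difference of -0.63, leaving out CET replicate 1 one of -2.24. CET replicate 1 lay above all VEH arrays. The other probe sets of IDI1 gave -2.29 (SE 0.90) and, below the dim limit, -0.83 (SE 0.69).

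Of the other genes of sterol synthesis after farnesyl diphosphate, TM7SF2, LBR, NSDHL and ERG28 were measured. They belong to the steps after lanosterol, as do CYP51A1, HSD17B7, EBP and DHCR7. At the brightest probe set all 4 had a lower mean after CET, between -0.52 and -0.62, and their median was -0.54. Other probe sets above the dim limit gave -1.26 (SE 0.60) for TM7SF2, -1.48 (SE 0.48) for ERG28 and -0.23 (SE 0.45) for NSDHL. The size thus depended on the probe set. NSDHL, which works beside HSD17B7 in removing methyl groups, had log2 signals of 10.02, 10.49 and 9.69 in CET replicates 1, 2 and 3 and of 10.76, 10.60 and 10.67 in VEH replicates 4, 5 and 6. These did not overlap, and the difference was -0.62 (SE 0.42, adjusted p = 0.83 from limma).

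The enzymes that carry farnesyl diphosphate away from sterols showed no common direction. Of 7 measured genes of these branches, 2 (DHDDS and PDSS2) were lower in the mean after CET and 5 were higher at the brightest probe set, the median was 0.15, and the differences lay between -0.34 and 0.21. They included FNTA and FNTB, the subunits of protein farnesyltransferase, and COQ2, an enzyme of ubiquinone synthesis. Probe sets of the same gene could differ in sign. NUS1, at 0.16, was lower at 3 of its 5 probe sets, down to -0.82 (SE 0.64), and the second probe set of COQ2 gave -0.17 (SE 0.55). For FNTB a probe set below the dim limit gave -0.48 (SE 1.01). PDSS2, at -0.34, also lay below that limit. The smallest p was that of DHDDS, a subunit of the enzyme that makes the dolichol chain, at -0.32 (SE 0.63, adjusted p = 0.94 from limma), and this value was 0.17 without CET replicate 3.

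**Figure D4:**
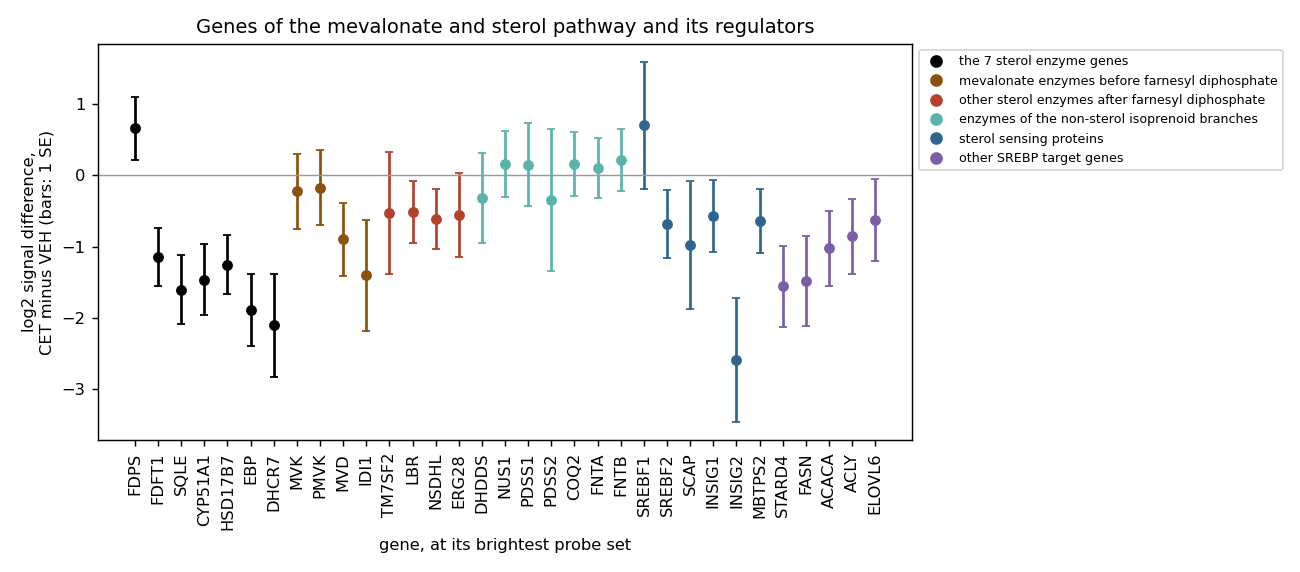
Log2 signal difference, CET minus VEH (vertical axis, bars are 1 SE), of the 7 genes and of the 26 other pathway genes with a probe set, each at its brightest probe set (horizontal axis, colours by list). The genes of the non-sterol branches lie around 0, between -0.34 and 0.21, and INSIG2 is the lowest at -2.59.

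Of 6 measured genes of sterol sensing, 5 had a lower mean after CET. The exception was SREBF1, named after its values were seen, at 0.70 (SE 0.89, adjusted p = 0.90 from limma). Its other probe sets gave 2.11 (SE 0.67) and, below the dim limit, -0.13 (SE 0.94), and the value of 0.70 ranged from -0.075 if VEH replicate 6 was left out to 1.62 if VEH replicate 4 was. SREBF2, which encodes SREBP2, had a difference of -0.68 (SE 0.48, adjusted p = 0.83 from limma), with -0.23, -0.38 and 0.67 at its 3 other probe sets, and was -0.32 if VEH replicate 4 was left out. INSIG1, itself a target of SREBP, had -0.57 (SE 0.51, adjusted p = 0.86 from limma), and -0.31 (SE 0.57) at its second probe set. INSIG2 had -2.59 (SE 0.87, adjusted p = 0.83), with log2 signals of 8.45, 4.90 and 8.43 in CET replicates 1, 2 and 3 and of 9.68, 10.05 and 9.83 in VEH replicates 4, 5 and 6. The groups did not overlap, and without CET replicate 2, the array with the high 3' to 5' ratio, the difference was -1.41. The second probe set of INSIG2 gave -0.86 (SE 0.85).

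Of the other genes that SREBPs are known to switch on, STARD4, FASN, ACACA, ACLY and ELOVL6 were measured, and 5 of 5 had a lower mean after CET, with a median of -1.02. STARD4, a carrier of cholesterol in the cytosol, had a difference of -1.55 (SE 0.57, adjusted p = 0.83 from limma) and was lower on every CET array. The difference was -0.95 without CET replicate 2, and the second probe set of STARD4 gave -1.17 (SE 0.82). FASN, fatty acid synthase, chosen after its values were seen, had -1.48 (SE 0.63, adjusted p = 0.83), and -0.80 without CET replicate 3. Averaged over these 5 genes, the log2 signal relative to VEH was -0.50, -1.15 and -1.68 on CET replicates 1, 2 and 3, while over the 7 genes it was -0.88, -1.34 and -1.54. The same order of arrays was seen in the sterol sensing genes and in the endothelial, leukocyte and epithelial markers.

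The markers of cell types did not move alike. In bulk tissue fewer cells of a type and less RNA per cell cannot be told apart. Of the 7 measured markers of luteal steroidogenic cells 7 had a lower mean after CET, against 54.6% of all genes, with a median of -0.99. Their differences lay between -1.50 and -0.11, the latter for NR5A1. In only 1 of them, STAR, were all CET arrays below the VEH arrays. Relative to VEH the mean of the 7 markers was -0.41, -1.59 and -0.68 on CET replicates 1, 2 and 3, and -0.04, 0.23 and -0.19 on VEH replicates 4, 5 and 6. The difference of these means was -0.90, and -0.55 without CET replicate 2. The log2 sum of their signals was 15.17 to 16.65 in CET and 16.48 to 16.97 in VEH. CYP11A1 and LHCGR, which also define these cells, were not matched to a probe set and were not analysed here. CET replicate 2 was the lowest array for these markers and CET replicate 3 for the 7 sterol enzyme genes. Endothelial markers had a lower mean in 7 of 9, with a median of -0.42, and the log2 sum of their signals was 13.94 to 14.68 in CET and 14.02 to 14.50 in VEH. Pericyte and smooth muscle markers had a lower mean in 3 of 5 (median -0.30, summed log2 signal 12.15 to 13.22 in CET and 12.88 to 13.30 in VEH), leukocyte markers in 5 of 7 (median -0.14, 11.25 to 12.49 in CET and 11.92 to 12.26 in VEH) and epithelial markers in 6 of 8 (median -0.64, 9.89 to 11.27 in CET and 11.14 to 11.59 in VEH). Of red blood cell markers HBB and ALAS2 were measured, with differences of -0.02 and 1.05. Below the dim limit were KDR among the endothelial markers, CNN1 among those of pericytes and smooth muscle, and KRT19, EPCAM, MSLN and KRT7 among the epithelial markers. The part of cell composition in the values of the sterol enzymes was not tested.

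**Figure D5:**
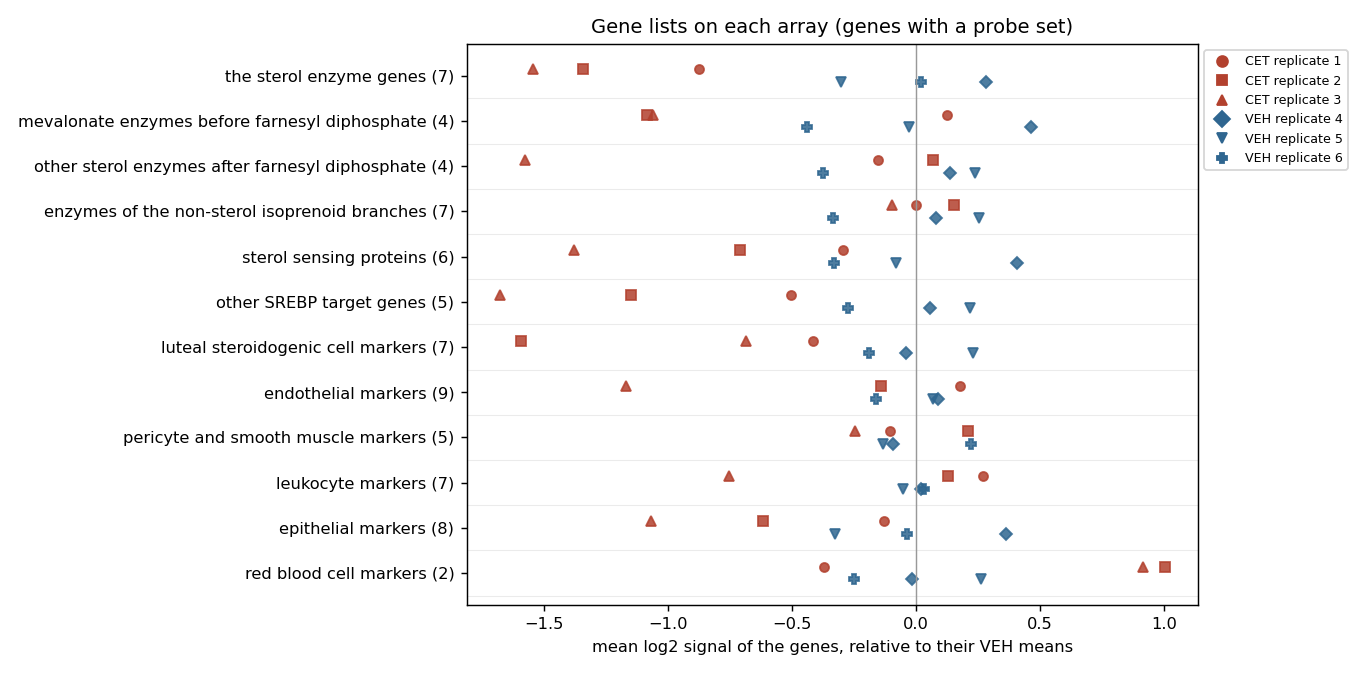
Mean log2 signal of each gene list on each array, relative to the VEH means of its genes (horizontal axis), with the lists down the page and their number of measured genes in brackets. Points are single arrays, CET above VEH. The CET and VEH points are apart for the sterol enzyme genes (highest CET -0.88, lowest VEH -0.30), the other SREBP target genes (-0.50 and -0.28) and the luteal steroidogenic cell markers (-0.41 and -0.19), and overlap in the other lists.

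To find genes with the most similar course over the arrays, the 6 values of each gene relative to its VEH mean were set against the mean course of the 7 genes. Likeness was the root mean square difference over the 6 arrays, on the log2 scale, and 10921 other genes above the dim limit were compared. The 5 closest were COQ8B (0.098), ACBD6 (0.17), GRB7 (0.19), ECM1 (0.21) and ATAD2 (0.22), with log2 differences between -1.31 and -1.11. They were picked for matching the course of genes chosen on this contrast. Their differences follow from that search, so no test is given and nothing is read from them. COQ8B followed the course more closely than any of the 7 genes did, but it was the closest of 10921 genes. The course also averages in FDPS, which lay above its VEH mean on CET replicates 2 and 3. Of the 7 genes themselves FDFT1 was closest to their common course (0.17), then HSD17B7 (0.27), CYP51A1 (0.32), SQLE (0.48), EBP (0.54) and DHCR7 (0.74), with FDPS far from it (1.46). Of the other genes compared, 8863 lay closer to the course than FDPS.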

How the data were processed

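The authors summarised each array with Affymetrix MAS5 and deposited 1 signal intensity per probe set, on a linear scale and scaled to a common trimmed mean; detection calls were not used here. Of 52865 probe sets, 158 controls were left out. After a floor of 1, signals were converted to log2 and quantile-normalized. CET and VEH were compared over 52707 probe sets with limma (version 3.58.1, R version 4.3.3), using a trended prior and Benjamini-Hochberg adjustment at 0.05. The limit for dim probe sets was the 40th percentile of mean log2 signal. Gene symbols came from GEO's platform annotation: 24956 probe sets had a single symbol, 361 several and 27390 none. With 3 against 3 arrays an exact permutation test cannot go below p = 0.1 and precision is limited by the number of arrays. Group sizes are given in animals, but the labels do not say which animal gave each array. Tested on simulated data with a small share of changed probe sets, the fit returned the sizes of known changes but called few or none after adjustment.

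The 7 genes and the other lists were chosen with earlier results of these data known. Other genes named are those with the smallest p of each pathway list, INSIG1, SREBF2 and the 5 genes of closest course, and FASN and SREBF1 were added. Promoter sequences were not used here. The alternatives were the scaling, the floor, the probe set, the weights, the test and each replicate.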

Additional observations from a re-analysis of the deposited data

Results flagged for a closer look

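The control probe sets for the ends of housekeeping transcripts, which no comparison of the sterol enzymes uses, had a higher 3' to 5' signal ratio in CET replicate 2 than on any VEH array. It was 142.9 for GAPDH, 37.2 for ACTB and 42.2 for EF1A, against a highest VEH value of 7.31, 22.4 and 9.56. Without this array the median log2 difference of the 7 genes was -1.25. The single values were 0.48 for FDPS, -1.24 for FDFT1, -1.47 for SQLE and -1.25 for CYP51A1. For HSD17B7, EBP and DHCR7 they were -1.07, -1.89 and -2.03. The 6 genes after FDPS still did not overlap between CET and VEH, but leaving out an array cannot make groups overlap that were apart. Where along each transcript the probes of the 13 probe sets lie was not examined here, and the part of RNA quality was not tested.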

How the results depend on the processing

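No paired analysis was possible because CET samples carry the numbers 1 to 3 and VEH samples 4 to 6, and nothing in the labels pairs them. The median log2 difference of the 7 genes, -1.46, ranged from -1.72 with array medians subtracted to -1.33 with the mean over the probe sets of each gene, and from -1.79 to -1.25 over the fits that left out a replicate. In 6 genes CET and VEH did not overlap under each of 5 alternatives. Not all of these could come out otherwise. Adding a constant to the signals or raising them to a floor keeps their order. Leaving out dim probe sets left these values as they were. Only the changes of scaling could have made the groups overlap. The 6 genes also stayed apart without each replicate. That could not come out otherwise, since groups that are apart stay apart with fewer arrays. The count of probe sets past the adjusted p was 0 under each of 8 alternatives and without each replicate. Over the settings that kept all arrays FDPS varied most of the 7 genes, from 0.0086 with array medians subtracted to 0.90 with array weights. Over the fits that left out a replicate DHCR7 varied most, from -2.63 to -1.66, and FDPS ranged from 0.48 to 0.99. The count of other pathway genes with a lower mean, 20, was 19 to 23 under other settings and 15 to 23 over the fits without a replicate. The sign of DHDDS turned to 0.17 without CET replicate 3 and ranged from -0.75 to 0.17 over the replicates left out. That of SREBF1 turned to -0.075 without VEH replicate 6, with values up to 1.62. Precision was limited by 3 arrays a group, with a median replicate SD of 0.85 over all probe sets on the log2 scale, and by dim signals for DHCR7 and the second SQLE probe set.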
